A study of Mus musculus with 9 samples.

Results

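Retromer and its partner sorting nexins were followed in cultured mouse macrophages differentiated from bone marrow. The set holds 8 genes of the 22165 gene rows of the counts table: the SNX-BAR sorting nexins Snx6, Snx5, Snx1 and Snx2 and the retromer subunits Vps35, Vps26a, Vps26b and Vps29. The genes were listed for their function, except that Snx6 was picked for its higher level in the libraries labelled knockout than in those labelled wild type. All 8 passed the filter on low counts, with 145 to 7447 reads in a library.

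Cells came from C57BL/6N mice of 6 to 16 weeks, and all 9 cultures had 24 h of lipopolysaccharide (LPS, a bacterial cell wall component) at 100 ng/mL. The 3 libraries labelled KO+ITA were from Irg1-/- cells given LPS and, 4 h later, 1 mM itaconate. The 3 labelled KO were from Irg1-/- cells with LPS alone, and the 3 labelled WT from wild-type cells with LPS alone. Itaconate is made in LPS-treated macrophages by the product of Irg1, listed here under its newer symbol Acod1. Neither the extent of the deletion nor the origin of replicates (separate animals, separate cultures) is labelled, and the replicate spread behind every p-value may therefore be technical only.

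Retromer is a coat on the cytosolic face of endosomes that selects membrane proteins and returns them to the Golgi or the cell surface instead of letting them reach the lysosome. VPS35 is its scaffold, VPS29 and one of the paralogues VPS26A or VPS26B sit at its ends, and the complex is recruited by RAB7 and SNX3. SNX1 and SNX2 pair with SNX5 or SNX6, and these dimers bend endosomal membrane into tubules through their BAR domains and bind cargo sorting motifs. In macrophages the route carries receptors and transporters between phagosomes, endosomes, the Golgi and the plasma membrane.

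The libraries held 7361671 to 20430359 gene reads. Acod1 went against the labels of 4 libraries. It lay at 6420 CPM (gene reads as TMM-scaled CPM, the unit of every level given here) in KO+ITA replicate 3 and at 4420 CPM in KO replicate 3, both labelled knockout, and at 11.3 and 9.14 CPM in WT replicates 1 and 2, against 4170 CPM in WT replicate 3. The other 4 libraries labelled knockout lay between 0.877 and 12.9 CPM. Reads near the 3′ end check the genotype only if the deletion removes or silences them, which was not tested. Whether samples were exchanged was not tested either, so KO+ITA, KO and WT stand for the labels throughout. KO+ITA replicate 3 was also the least like the rest (mean Pearson's r 0.909, against 0.939 to 0.954 for the other 8), with 0.709% of its gene reads from mitochondrial genes against 1.27% to 2.57%. Summed macrophage markers (10 of 10 in the table, none at 0 in all libraries) came to 5910 to 8520 CPM in KO+ITA, 8220 to 8810 CPM in KO and 8840 to 11100 CPM in WT. Summed neutrophil markers (8 of 8 in the table, none at 0 throughout) came to 79.5 to 217, 163 to 213 and 234 to 249 CPM, and fibroblast and stromal markers (7 of 7, none at 0 throughout) to 167 to 274, 191 to 222 and 187 to 272 CPM, in that order of groups. Dendritic cell markers summed to at most 2.43 CPM and lymphocyte markers to at most 2.54 CPM in a library, with Cd3e, Cd8a, Cd79a and Ncr1 at 0 in all 9.

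Snx6 encodes a SNX-BAR protein that pairs with SNX1 or SNX2. The gene (ENSMUSG00000005656.8) lies on the minus strand of chromosome 12 from 54746349 to 54795703 in GRCm38 and overlaps no other annotated gene. Its closest relative in the set by role is Snx5 (ENSMUSG00000027423.15), on the minus strand of chromosome 2 from 144250123 to 144270906, which overlaps Mgme1 on the other strand by 244 bases and 3 small genes on its own strand (Gm11688 by 308, Snord17 by 238 and Gm26165 by 138 bases). The strand setting of the counting is not given in the sources used here. Reads where genes overlap on opposite strands may therefore have been set aside as ambiguous, a class with 0.275% to 0.441% of reads. The start-site windows of both are printed because these alternative partners of SNX1 and SNX2 differed in their pattern over the groups. Each runs from 250 bases before to 50 after the RefSeq start (GRCm38.p6, minus strand, chr12:54795613-54795912 and chr2:144270523-144270822), with motif matches in capitals.
Snx6: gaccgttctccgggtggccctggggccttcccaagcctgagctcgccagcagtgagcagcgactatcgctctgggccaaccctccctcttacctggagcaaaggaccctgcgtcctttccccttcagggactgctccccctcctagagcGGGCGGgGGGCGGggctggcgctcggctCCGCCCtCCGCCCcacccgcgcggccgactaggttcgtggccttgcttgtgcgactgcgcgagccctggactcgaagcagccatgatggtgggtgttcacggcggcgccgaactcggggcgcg
Snx5: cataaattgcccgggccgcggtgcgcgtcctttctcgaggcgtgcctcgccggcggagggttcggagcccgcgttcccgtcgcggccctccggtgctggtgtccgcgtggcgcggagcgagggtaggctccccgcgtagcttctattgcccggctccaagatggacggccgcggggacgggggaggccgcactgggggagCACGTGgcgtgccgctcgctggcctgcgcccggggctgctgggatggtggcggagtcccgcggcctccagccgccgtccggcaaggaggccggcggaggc
The Snx6 window was 70.3% G or C and held 4 GC boxes (GGGCGG on either strand), starting at window bases 150, 157, 178 and 185. The Snx5 window was 75.7% G or C and held no GC box but 1 E-box (CACGTG) at base 201. Over all 32851 windows of this length in the table, 35.7% held a GC box and 7.15% an E-box. Of the 7 windows searched for genes of the set, 5 held a GC box, among them those of Snx1, Vps26a and Vps29. An E-box was in 3 of the 7, those of Snx5 and Vps26a. Vps26a has more than 1 window among the 7, and these overlap, so sites in both are counted more than once. The other letters searched on both strands were CCAAT, TGACNNNGC, an ISRE core, a kappaB site and TGACGTCA. None was found in the Snx6 or the Snx5 window, and 37.4%, 12.4%, 3.44%, 0.155% and 1.79% of all windows held them. A match is a description of letters, not of a factor's binding. RefSeq windows were searched for 6 of the 8 genes and none for Snx2 or Vps35. This is not evidence that RefSeq holds no window for them, and the counts out of 7 do not describe these genes.

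Snx6 stood at 115, 173 and 168.5 CPM in KO+ITA replicates 1 to 3, at 364, 317 and 397 CPM in the KO replicates, and at 148, 134 and 164 CPM in the WT replicates. The 3 KO libraries lay above all 6 others, whereas KO+ITA and WT overlapped. The means were 152 ± 32.1 CPM in KO+ITA, 359 ± 40 CPM in KO and 149 ± 15.3 CPM in WT (SD, n = 3 each). As these values chose the gene, its differences are given as a description with no test: log2 fold changes of 1.27 ± 0.27 (SE) for KO against WT and of -1.24 ± 0.27 for KO+ITA against KO, which share the KO libraries, and of 0.03 ± 0.27 for KO+ITA against WT. In bulk samples a difference in the mix of cells and a difference in RNA per cell cannot be told apart. The lowest KO library was 1.83 times the highest of the others, ranking 1 for that ratio among the 10781 genes tested, of which 90 (0.835%) had all KO libraries above the other 6. By its log2 fold change for KO against WT, Snx6 ranked 98 of 10781. These ranks describe the values that chose the gene and are no support for its difference.

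High Acod1 was found with both high and low Snx6. KO replicate 3, with high Acod1, had the highest Snx6 level of the 9 libraries, and KO+ITA replicate 3, also with high Acod1, had 168.5 CPM. Among the 5 libraries whose Acod1 fits their label, Snx6 lay at 115 and 173 CPM in KO+ITA, 364 and 317 CPM in KO and 164 CPM in the single WT library. The log2 fold changes over those 5 were 1.07 for KO against WT, -1.27 for KO+ITA against KO and -0.20 for KO+ITA against WT. The number before the barcode in the sample descriptions is read here as a sequencing pool. Pool 1 holds KO libraries at 317 and 364 CPM and WT libraries at 134 to 164 CPM, and pool 2 holds KO+ITA replicate 1 at 115 CPM and KO replicate 3 at 397 CPM. Pools 3 and 4 hold 1 KO+ITA library each, at 173 and 168.5 CPM. Macrophage and neutrophil marker sums were also apart between KO and WT, both lower in KO, and their part in the Snx6 difference was not tested.

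**Figure D1:**
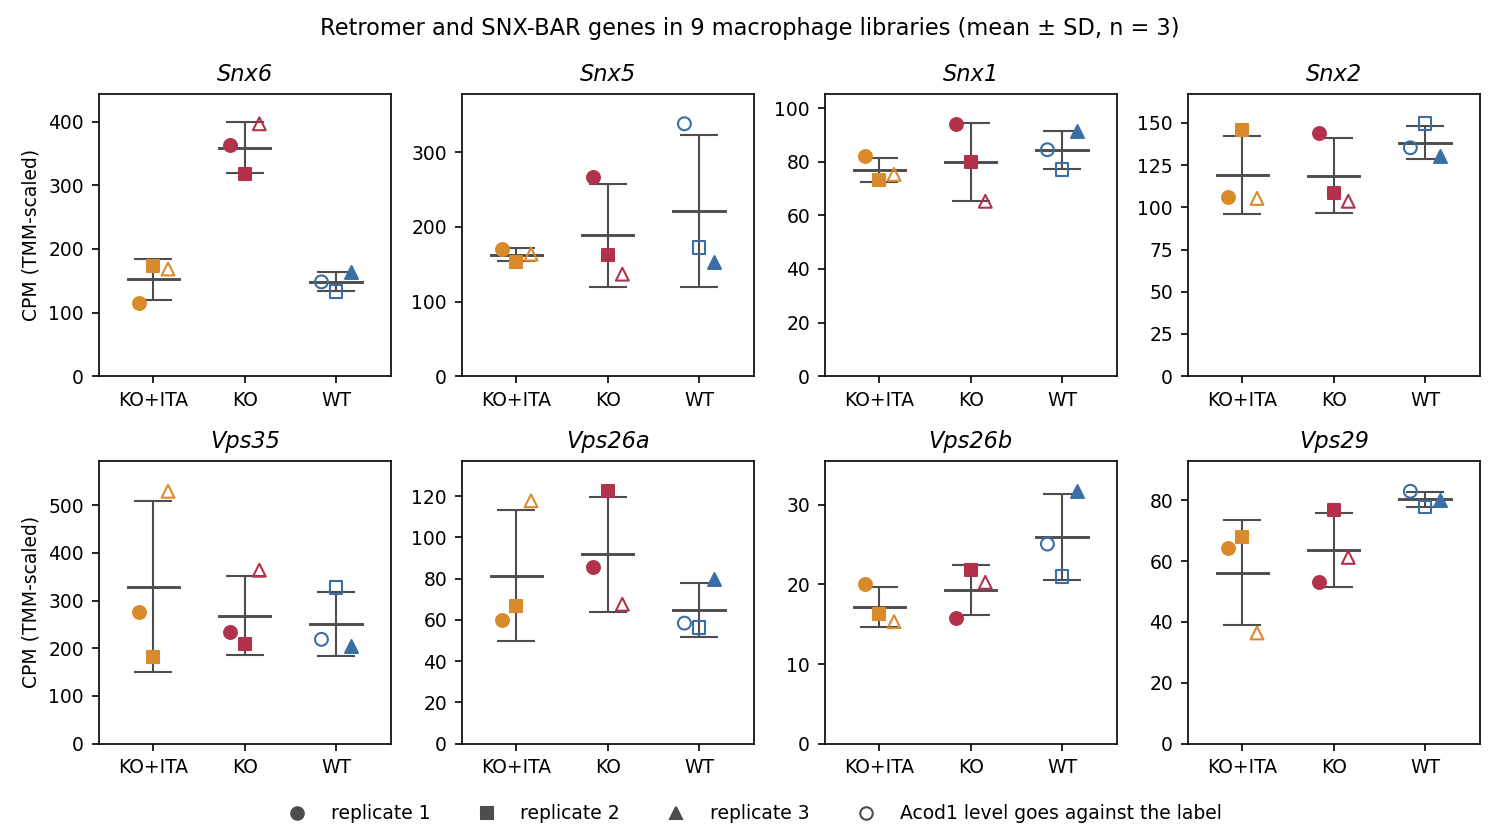
TMM-scaled CPM of each gene in the 9 libraries (points) with the mean ± SD per labelled group (bars, n = 3), KO+ITA left, KO in the middle and WT right, on axes that start at 0. Open points are libraries whose Acod1 level goes against their label. For Snx6, KO+ITA lies at 115 to 173 CPM, KO at 317 to 397 CPM and WT at 134 to 164 CPM.

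The other SNX-BAR genes did not follow Snx6. Snx5 lay at 171, 153 and 163 CPM in KO+ITA replicates 1 to 3, at 267, 162 and 137 CPM in KO and at 338, 172 and 153 CPM in WT. All 3 groups overlapped, and replicate 1 was the highest of each, by a wide margin in KO and WT. The log2 fold change of Snx5 was -0.23 ± 0.34 (SE) for KO against WT. It turned to 0.21 without WT replicate 1 alone and was 0.51 in the 5 libraries whose Acod1 fits. For KO+ITA against WT it was -0.44 ± 0.34 (edgeR adjusted p = 0.704), and it was 0.00 without WT replicate 1 and 0.08 in those 5 libraries. Snx1, which encodes a partner of SNX5 and SNX6 (chromosome 9, 66088133 to 66126587, minus strand), ranged from 73.4 to 82 CPM in KO+ITA, 65.2 to 94.2 CPM in KO and 77.2 to 91.4 CPM in WT. Its ranges overlapped in all 3 groups, with log2 fold changes of -0.08 ± 0.26 for KO against WT, -0.05 ± 0.26 for KO+ITA against KO and -0.13 ± 0.26 for KO+ITA against WT. Snx2, the paralogue of Snx1 (chromosome 18, 53176316 to 53220865, plus strand), averaged 119 ± 23.1 CPM in KO+ITA, 119 ± 22.2 CPM in KO and 138 ± 9.89 CPM in WT (SD, n = 3 each). Both orders, KO+ITA and KO below WT, were within the overlap of the ranges, with a log2 fold change of -0.22 ± 0.27 for each against WT.

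Set against its own set, Snx6 exceeded the median of the other 7 genes in the same library by 0.49, 1.24 and 0.68 on the log2 CPM scale in KO+ITA replicates 1 to 3, by 1.95, 1.55 and 2.55 in KO and by 0.81, 0.78 and 0.85 in WT. These values describe the gene's level relative to its set and carry over the choice of Snx6 for its KO level.

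Among retromer subunits, Vps29 and Vps26b had negative log2 fold changes in both KO and KO+ITA against WT, and neither passed a test where one was made. Vps29, which encodes the small subunit that links VPS35 to regulators (chromosome 5, 122354369 to 122364984, plus strand), lay at 64.2, 67.9 and 36.4 CPM in KO+ITA replicates 1 to 3, at 53, 76.9 and 61.2 CPM in KO and at 82.9, 77.8 and 80 CPM in WT. All 6 libraries labelled KO or KO+ITA were below all 3 labelled WT, by a margin of under 1 CPM at the closest (76.9 CPM in KO replicate 2 and 77.8 CPM in WT replicate 2), as for 210 of 10781 genes (1.95%). Its log2 fold change was -0.33 ± 0.29 (SE) for KO against WT and -0.51 ± 0.295 for KO+ITA against WT. The second value did not pass (edgeR adjusted p = 0.62) and was -0.28 without KO+ITA replicate 3, the lowest library. The macrophage and neutrophil marker sums were lower in KO+ITA and KO than in WT as well, and their part in the Vps29 difference was not tested. All WT libraries are in pool 1 and the KO+ITA libraries in pools 2, 3 and 4, so no pool holds both groups. With the pool as a term, the log2 fold changes for KO+ITA against WT were -0.24 for Vps29 and -0.48 for Vps26b. The part of the pool in these differences was not tested. Vps29 overlaps Fam216a on the other strand by 405 bases. Vps26b, which encodes one of the 2 alternative VPS26 subunits (chromosome 9, 27007771 to 27030065, minus strand), had the fewest reads of the set and overlaps Gm48673 on the same strand by 3369 bases. It lay at 20, 16.2 and 15.3 CPM in KO+ITA, at 15.7, 21.9 and 20.3 CPM in KO and at 25.1, 21 and 31.7 CPM in WT. KO+ITA was below WT without overlap, and KO overlapped WT through KO replicate 2. Its log2 fold change was -0.59 ± 0.28 for KO+ITA against WT (edgeR adjusted p = 0.568) and -0.43 ± 0.28 for KO against WT. The least count behind these values was 145 reads in KO+ITA replicate 3, with an exact 95% Poisson interval of 122 to 171 that covers counting error only.

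Vps26a and Vps35 had positive log2 fold changes against WT, which for KO+ITA changed sign without KO+ITA replicate 3. Vps26a, which encodes the other VPS26 subunit (chromosome 10, 62455235 to 62486805, minus strand), lay at 60.2, 66.6 and 118 CPM in KO+ITA, at 85.7, 122 and 67.6 CPM in KO and at 58.5, 56.4 and 79.7 CPM in WT. Its log2 fold change for KO against WT was 0.50 ± 0.33 and stayed positive in all 20 alternatives, at 0.24 without KO replicate 2. KO replicates 1 and 2 lay above all 3 WT libraries. For KO+ITA against WT it was 0.33 ± 0.33 (edgeR adjusted p = 0.774) and -0.03 without KO+ITA replicate 3. For KO+ITA against KO it was -0.17 ± 0.33 (edgeR adjusted p = 0.914), -0.55 without that library and -0.74 in the 5 libraries whose Acod1 fits. Vps35, the scaffold (chromosome 8, 85260392 to 85299802, minus strand), lay at 276, 182 and 529 CPM in KO+ITA, at 233, 209 and 364 CPM in KO and at 219, 327 and 205 CPM in WT. KO+ITA replicate 3 was the highest library for Vps35 and the lowest for Vps29. For Vps26b it was the lowest only narrowly, at 15.3 CPM against 15.7 CPM in KO replicate 1. Vps35 and Vps29, subunits of 1 complex, thus moved in opposite directions in the library that stands apart. The Vps35 log2 fold change for KO+ITA against WT was 0.39 ± 0.375 (edgeR adjusted p = 0.762) with that library and -0.12 without it. For KO against WT the Vps35 value was 0.10 ± 0.37 and changed sign in 4 of 20 alternatives. Vps35 overlaps Orc6 on the other strand by 171 bases.

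**Figure D2:**
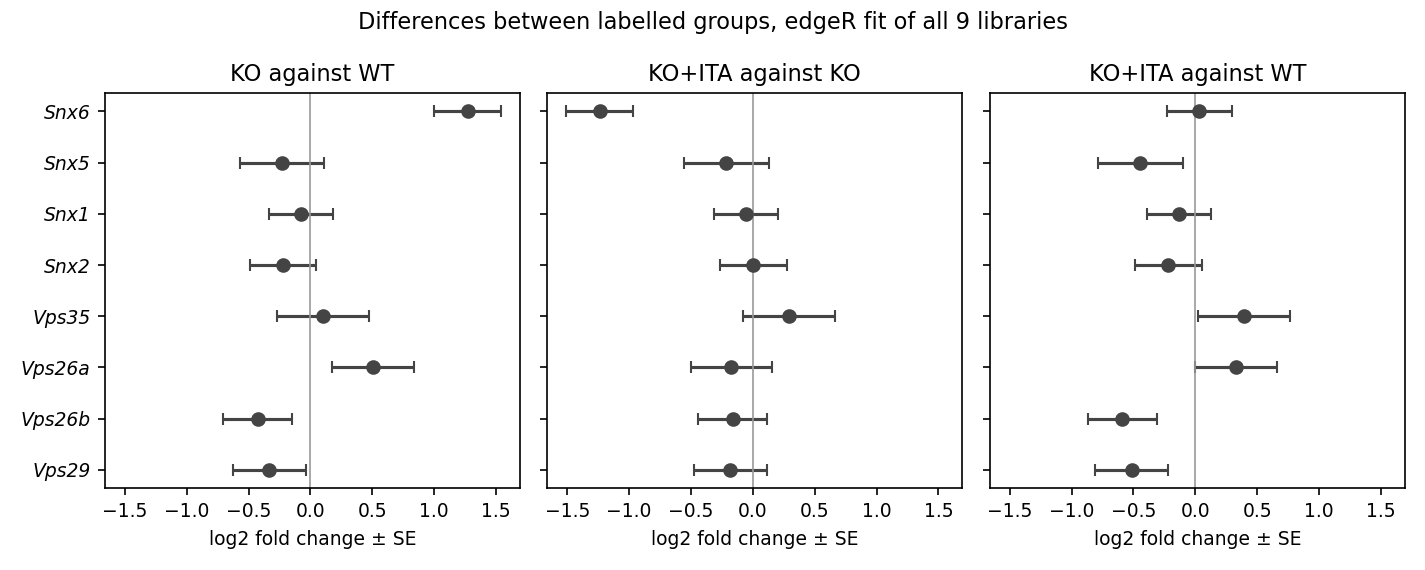
Log2 fold changes (x axis, points) with their SE (bars) of the 8 genes in the 3 comparisons of labelled groups, from the edgeR fit of all 9 libraries. Snx6 lies at 1.27 for KO against WT, -1.24 for KO+ITA against KO and 0.03 for KO+ITA against WT, while the other 7 lie between -0.59 and 0.50.

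By edgeR's quasi-likelihood test, none of the 7 genes other than Snx6 passed an adjusted p of 0.05 in KO+ITA against KO (adjusted p 0.858 to 0.998) or in KO+ITA against WT (adjusted p 0.568 to 0.894), nor did any of the 10781 genes (0%). At an unadjusted p under 0.05 there were 0 of these 7 in either comparison, and 895 and 958 of all genes. DESeq2 and limma-voom called 0 of the 7 as well, although DESeq2 gave only 1 of them an adjusted p in KO+ITA against WT. DESeq2 called 0.111% of all genes with an adjusted p in KO+ITA against KO and 1.87% in KO+ITA against WT. The SE of the 7 genes was 0.26 to 0.375 on the log2 scale, so differences of that size were not detectable with 3 libraries per group. In KO against WT, the contrast that chose Snx6, edgeR called 0% of all genes and 337 had an unadjusted p under 0.05. DESeq2 called 1 gene there (0.00929% of those with an adjusted p) and limma-voom called 0, and nothing is read from these calls about the 8 genes.

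The ranges of KO and WT did not overlap for Snx6 (higher in KO) and Vps29 (lower), against 4.85% of all genes higher and 5.76% lower without overlap. KO+ITA and KO did not overlap for Snx6 (lower in KO+ITA, as for 5.29% of all genes, with 5.61% higher), and KO+ITA and WT did not for Vps26b and Vps29 (lower in KO+ITA, as for 7.25% of all genes, with 7.3% higher). The 8 genes had 3 positive log2 fold changes and a median of -0.15 in KO against WT, 2 and -0.17 in KO+ITA against KO, and 3 and -0.175 in KO+ITA against WT, where 48.9%, 48.4% and 49.1% of all genes were positive with medians of -0.01, -0.02 and -0.01.

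Other genes of endosomal sorting were taken from 11 lists by function, with 125 of 131 listed genes in the table above the filter. By edgeR, DESeq2 and limma-voom 0 of the 125 passed in any comparison. At an unadjusted edgeR p under 0.05 there were 4 in KO against WT (3.2%, against 3.13% of all genes), 5 in KO+ITA against KO (4%, against 8.3%) and 10 in KO+ITA against WT (8%, against 8.89%). The median log2 fold changes over the 125 were 0.04, -0.09 and -0.04.

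None of the other sorting nexins passed a test. For KO against WT, 6 of 8 other SNX-BAR genes were positive (median 0.14), and the farthest was Snx9, which encodes a SNX-BAR protein of endocytosis, at 0.49 ± 0.43 (SE). Snx9 lay at 139, 54.5 and 56.2 CPM in KO replicates 1 to 3 and at 71.2, 56 and 50.6 CPM in WT. Only KO replicate 1 was above the WT range. Of 16 further sorting nexins 8 were positive (median -0.05), from -0.46 for Snx3 to 0.51 for Snx29. Snx29 averaged 26.7 ± 9.49 CPM in KO+ITA, 25.2 ± 4.14 CPM in KO and 17.7 ± 2.26 CPM in WT (SD, n = 3 each), and KO was above WT without overlap. Snx3, which encodes the nexin that brings retromer to endosomes, averaged 94.8 ± 40.9 CPM in KO+ITA, 106 ± 17.6 CPM in KO and 145 ± 14.8 CPM in WT (SD, n = 3 each), a log2 fold change of -0.46 ± 0.33 for KO against WT. Rab7, which encodes the GTPase that recruits retromer, had the same order at 140 ± 55.5, 150 ± 19.4 and 200 ± 18.1 CPM, with a log2 fold change of -0.42 ± 0.31 for KO against WT. The lowest place of KO+ITA for both genes rests on KO+ITA replicate 3, at 47.7 CPM for Snx3 and 78.7 CPM for Rab7. KO+ITA replicates 1 and 2 lay at 121 and 116 CPM for Snx3, and KO replicates 1 to 3 at 91.7, 126 and 100 CPM. For Rab7 these libraries lay at 187 and 155 CPM in KO+ITA and at 127, 162 and 160 CPM in KO. For Snx3 and Rab7, KO was below WT without overlap. Over the 125 listed genes, KO and WT did not overlap for 7 higher and 11 lower in KO, beside 4.85% and 5.76% of all genes. Snx18, another SNX-BAR gene, averaged 365 ± 47.7 CPM in KO+ITA, 254 ± 60 CPM in KO and 245 ± 20.1 CPM in WT, a log2 fold change of 0.57 ± 0.27 for KO+ITA against WT (edgeR adjusted p = 0.561).

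Partner complexes and cargoes split between directions. Of the 5 genes of the WASH complex, which builds actin patches on retromer domains, 4 were positive in KO against WT (median 0.05) and 1 in KO+ITA against KO (median -0.19). Of 14 genes of Commander and retriever, the complex that recycles cargo of SNX17, 5 were positive in KO against WT (median -0.23) and 7 in KO+ITA against KO (median 0.07). In the last comparison Vps35l and Vps26c had the smallest p of that list. Vps35l averaged 107 ± 6.17 CPM in KO+ITA and 70.5 ± 22.4 CPM in KO, where KO replicate 1 was the lowest at 45.7 CPM. Vps26c averaged 38.1 ± 3.36 CPM in KO+ITA and 26.6 ± 1.57 CPM in KO. Both were higher in KO+ITA without overlap, as for 5.61% of all genes and 4 of the 125 listed genes. Their log2 fold changes were 0.60 ± 0.29 and 0.52 ± 0.25 (edgeR adjusted p = 0.597 and 0.604). Of 12 cargo genes 6 were positive in KO against WT (median 0.01), with Igf2r, which encodes the cation-independent mannose 6-phosphate receptor, at 0.70 ± 0.40 and Sort1, which encodes sortilin, at -0.81 ± 0.47. Among 10 tethers that receive vesicles at the trans-Golgi, the GARP subunits Vps52 and Vps53 had their lowest means in KO+ITA: Vps52 at 10.1 ± 3.19 CPM, against 15.5 ± 1.65 CPM in KO and 19.6 ± 2.53 CPM in WT, and Vps53 at 24.5 ± 3.64 CPM, against 27.9 ± 3.4 CPM in KO and 39.1 ± 5.03 CPM in WT. Neither passed for KO+ITA against WT (log2 fold changes -0.96 ± 0.31 and -0.67 ± 0.26, edgeR adjusted p = 0.518 and 0.537). Of the other GARP subunits, Vps54 went the other way in that comparison, at 0.44. Vps51, with at most 6.82 CPM in a library, was at -1.21. Of the 10 tethers, 5 were positive there.

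**Figure D3:**
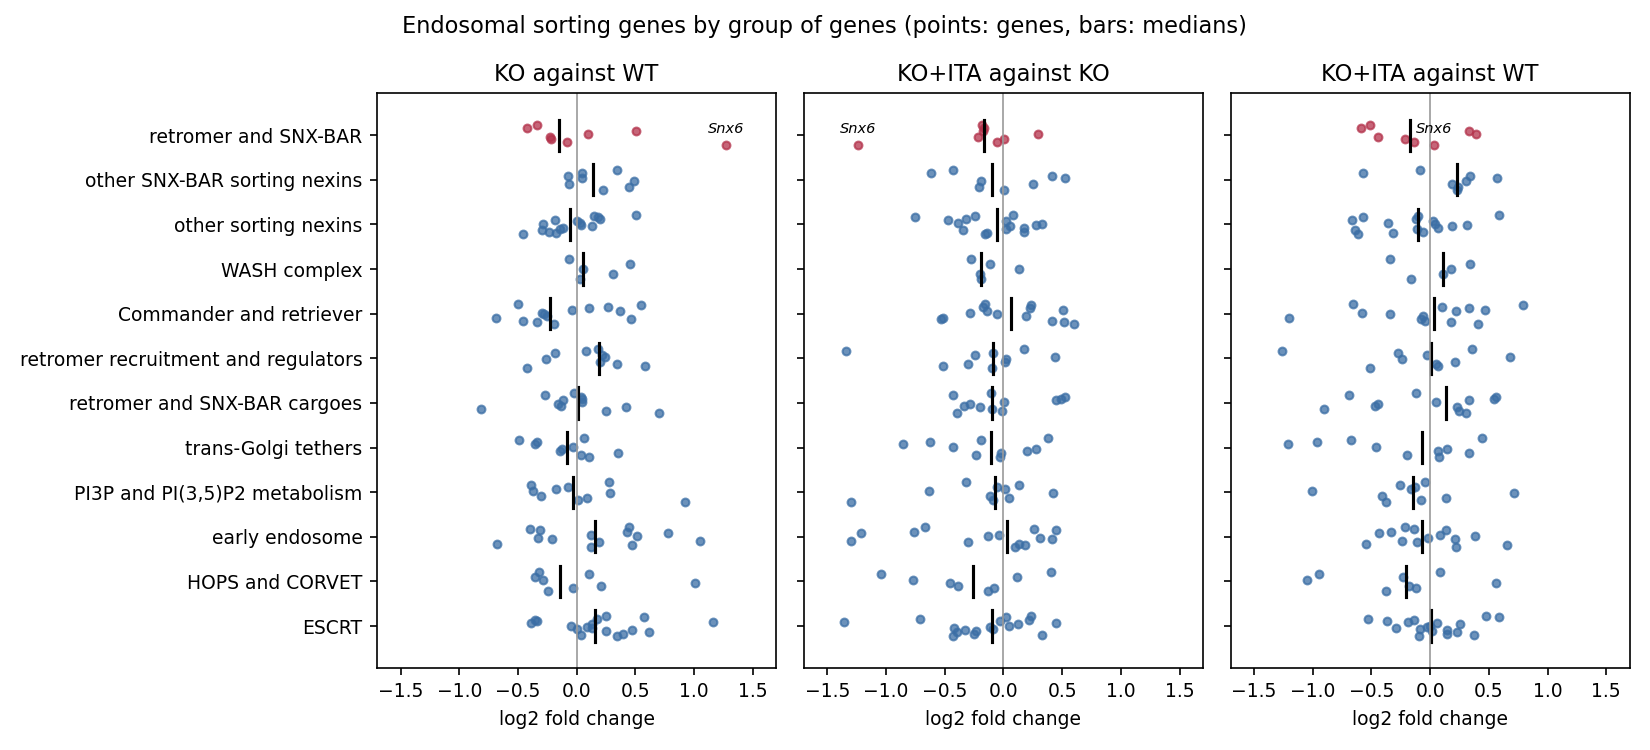
Log2 fold changes (x axis) of the 8 retromer and SNX-BAR genes (red) and of 125 other endosomal sorting genes (blue) by list (rows) in the 3 comparisons, with list medians as black bars. List medians lie between -0.26 and 0.23, and Snx6 has the highest value shown in KO against WT.

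The remaining lists likewise held no call. In KO against WT, 14 of 18 ESCRT genes (median 0.15), 9 of 14 early endosome genes (median 0.15), 7 of 10 retromer recruitment genes (median 0.19), 5 of 10 genes of phosphoinositide metabolism (median -0.03) and 3 of 8 HOPS and CORVET genes (median -0.14) were positive. In KO+ITA against KO, the counts were 7 of 18, 7 of 14, 4 of 10, 4 of 10 and 2 of 8.

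The 5 of 125 listed genes with an unadjusted p under 0.05 in KO+ITA against KO were Pik3c3, Appl2, Rabep1, Vps8 and Chmp5, all lower in KO+ITA. Pik3c3, which encodes the kinase VPS34 that makes the lipid PI3P bound by sorting nexins, lay at 22.4, 15.4 and 17.7 CPM in KO+ITA replicates 1 to 3, at 72.7, 34.5 and 28.9 CPM in KO and at 26.3, 22.3 and 23.5 CPM in WT. The 3 KO libraries were above the other 6, as for 0.835% of all genes, with KO replicate 1 far above the other 2. Rabep1, which encodes the RAB5 effector rabaptin-5, lay at 77.7, 60.9 and 112 CPM in KO+ITA, at 342, 191 and 83.3 CPM in KO and at 133, 99.3 and 64.2 CPM in WT, so KO replicate 3 was inside the range of the others. Chmp5, which encodes an ESCRT-III protein of the degradative route, lay at 104, 97.2 and 82.5 CPM in KO+ITA, at 382, 270 and 73.4 CPM in KO and at 139, 79.5 and 106 CPM in WT. For these 3 genes KO+ITA against KO had an edgeR adjusted p of 0.507, with log2 fold changes of -1.30 ± 0.34, -1.29 ± 0.44 and -1.35 ± 0.45. Appl2 and Vps8 had -1.21 ± 0.37 and -1.04 ± 0.38 (edgeR adjusted p = 0.507 and 0.523).

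Among the genes whose log2 CPM followed Snx6 most closely over the 9 libraries, of 7290 genes averaging at least 10 CPM, were 4933427D14Rik, Cops2, Nfe2l2 and B230219D22Rik, with Pearson's r of 0.90, 0.89, 0.87 and 0.87. The libraries fall into a high group (KO) and a low group (the other 6), so these coefficients mostly describe that step. Over the 6 libraries not labelled KO they were 0.71, 0.64, 0.24 and 0.83. Nfe2l2, which encodes the antioxidant transcription factor NRF2, lay at 141 to 240 CPM in KO+ITA, 248 to 405 CPM in KO and 162 to 203 CPM in WT. Cops2, which encodes a subunit of the COP9 signalosome, lay at 43.5 to 50.1, 76.6 to 127 and 47.6 to 59.5 CPM, in the same order. Within the set, Vps26a had the highest r with Snx6 (0.44) and the other 6 lay between -0.23 and -0.03.

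On chromosome 12, the 3 tested genes on either side of Snx6 were chosen by position after its values were seen. For KO against WT their log2 fold changes had both signs. KO was above WT without overlap for 2 of the 6, beside 4.85% of all genes. Eapp, 50.5 kb away on the same strand, ranged from 30.7 to 88.8 CPM in KO+ITA, 64.9 to 117 CPM in KO and 33.8 to 50.8 CPM in WT, with a log2 fold change of 1.02 ± 0.39 (SE) for KO against WT. KO overlapped KO+ITA. Baz1a, 97.3 kb away on the other side, ranged from 320 to 529 CPM in KO+ITA, 316 to 375 CPM in KO and 200 to 259 CPM in WT, with a log2 fold change of 0.54 ± 0.28. Cfl2, which encodes the actin-severing protein cofilin-2, is 63.1 kb away on that side and had a log2 fold change of 0.00 ± 0.27. Sptssa, 2700097O09Rik and Egln3 had -0.28 ± 0.33, 0.38 ± 0.33 and -0.69 ± 0.37.

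**Figure D4:**
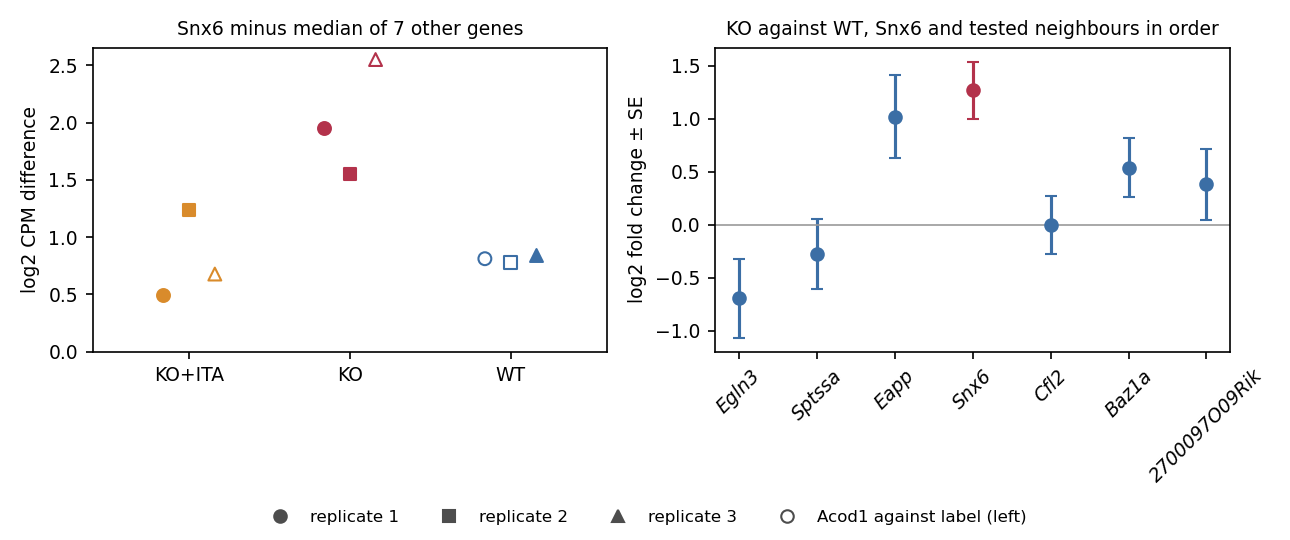
Left, Snx6 log2 CPM minus the median of the other 7 genes in each library by labelled group, with KO+ITA at 0.49 to 1.24, KO at 1.55 to 2.55 and WT at 0.78 to 0.85. Right, log2 fold change ± SE for KO against WT of Snx6 (1.27) and of the 3 tested genes on each side in chromosomal order, among which Eapp (1.02) is the highest.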

How the data were processed

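Whole-number counts, not normalized, were deposited for 22165 gene rows and 5 summary lines. STAR, HTSeq and mm10 are named in the submitters' processing notes. Versions and annotation are not given in the sources used here. Per the labels' protocols, libraries were strand-specific, primed with barcoded oligo-dT and PCR-amplified, with no molecular identifier mentioned, so intervals cover counting error only. Reads lie mostly near 3′ ends.

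Symbols were matched for 21745 identifiers, and summary lines were left out (no feature 23.1% to 33.7%, ambiguous 0.275% to 0.441%, not unique 17.1% to 20% of reads). Positions are from GENCODE M21 (GRCm38). Counts entered edgeR 4.0.16 (R 4.3.3): TMM scaling, its expression filter at a minimum count of 10 (10781 genes), and 1 quasi-likelihood fit of 9 libraries with group as the term. The Benjamini-Hochberg adjustment ran over all genes. The fit was tested on simulated counts with the same spread set for all genes, so that check does not give its power in these data. No 2 libraries held identical counts.

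Members and lists were chosen with earlier results of these data known. From each list, the 2 genes with the smallest p (for KO against WT, the largest change) could be named. The most Snx6-like genes were the first 5 by Pearson's r of log2 CPM (prior count 2), of which 1 is not reported here. Alternatives included DESeq2 1.42.0 and limma-voom (limma 3.58.1), other scaling and filters, a replicate block, the pool, and leaving out each library.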

Additional observations from a re-analysis of the deposited data

How the results depend on the processing

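The Snx6 log2 fold change kept its sign in all 20 alternatives for KO against WT and all 19 for KO+ITA against KO. Snx6 was chosen for its KO level, so these signs follow largely from that choice and are no test of the difference. Leaving out 1 library at a time gave 1.20 to 1.35 and -1.34 to -1.08. For KO+ITA against WT it was near 0, at -0.07 to 0.20 with 1 library left out, and changed sign in 6 of 19. It was 1.07 for KO against WT in the 5 libraries whose Acod1 fits their label, where the single WT library is assumed to vary like the other groups. With the pool as a term it was -1.78 for KO+ITA against KO and -0.59 for KO+ITA against WT, a fit that compares these groups through the pair of libraries in pool 2. Replicate numbers did not pair libraries: deviations of same-numbered libraries correlated at -0.16 to 0.25, others at -0.30 to 0.22, and libraries did not all correlate best with their own number. With the replicate block 0 genes were called in each comparison, and Snx6 was at 1.27, -1.25 and 0.03. For the other 7 genes, 33 of 406 values changed sign and 13 moved by 1 SD or more. None was called in any alternative for KO+ITA against KO or KO+ITA against WT.

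Counts of genes called, 0 by edgeR in each comparison, were 1 (KO against WT), 12 (KO+ITA against KO) and 14 (KO+ITA against WT) by DESeq2. Without a filter on low counts they were 80 for KO+ITA against KO and 92 for KO+ITA against WT. In the 5 libraries whose Acod1 fits they were 2, 217 and 1. With 1 library left out they ranged from 0 to 0, 0 to 6 and 0 to 4, the highest without KO+ITA replicate 1. The cause of these moves was not tested. Counting error bears most on Vps26b, which had as few as 145 reads in a library.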
